A study of Mus musculus with 6 samples.

Results

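Chemokines and their receptors were taken as all genes of the array whose single annotated symbol begins with Ccl, Cxcl, Ccr, Cxcr, Cx3cl, Cx3cr, Xcl or Xcr followed by a digit. This gave 52 genes, 34 ligands and 18 receptors, of 22180 genes that the annotation names by a single symbol (34472 probe sets in all). Where a gene had several probe sets, the one with the highest mean log2 signal over the 6 arrays stood for it. Liver RNA came from male FAH5981SB mice of the C57Bl/6J background, in which both groups share a point mutation of Fah (it encodes the last enzyme of tyrosine breakdown). After withdrawal (3 arrays), NTBC had been stopped at 11 weeks of age for 7 days, and on continuous NTBC (3 arrays) the drug was given throughout at 8 mg/l in the drinking water. NTBC, or nitisinone, blocks tyrosine breakdown upstream of the missing enzyme. All mice ate a chow low in tyrosine and phenylalanine, the drinking water of NTBC-treated mice held 3% dextrose, and livers were taken at 12 weeks. Whether dextrose was kept after the drug was stopped is not settled by the labels, so a difference in dextrose cannot be told apart from withdrawal. No animals are named, and the labels speak only of biological replicates. The p-values therefore reflect how far these samples spread, and part of that spread may be technical.

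Chemokines are small secreted proteins that steer white blood cells along concentration gradients by binding G protein-coupled receptors on them. They are grouped by the spacing of their first cysteines into CC, CXC, CX3C and XC classes. In injured liver, hepatocytes, Kupffer cells, stellate cells and sinusoidal endothelium are known to make ligands that draw in monocytes (Ccl2 and its relatives), neutrophils (Cxcl1, Cxcl2 and Cxcl5) and T and NK cells (Cxcl9 to Cxcl11). Other ligands, such as Cxcl12 and Ccl25, are made in the absence of inflammation and guide the homing and retention of blood cells. Since whole liver was measured, fewer cells of a type and less RNA per cell cannot be told apart.

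Promoter sequences are shown for neighbouring chemokine genes that differed in their change, and for Cxcl12. Cxcl1 lies beside Cxcl2 on chromosome 5, and Ccl9 beside Ccl6 on chromosome 11. Each line gives the 150 bases before the annotated start, from RefSeq on GRCm38.p6, on the strand of the gene. Capitals mark GGG, any 2 bases, then TTTCC, on either strand (GGAAA, any 2 bases, then CCC on the other strand). This is a spelling of the site that NF-kB, a transcription factor of inflammation, is known to bind.
Cxcl1 (chr5:90891095-90891244, plus strand): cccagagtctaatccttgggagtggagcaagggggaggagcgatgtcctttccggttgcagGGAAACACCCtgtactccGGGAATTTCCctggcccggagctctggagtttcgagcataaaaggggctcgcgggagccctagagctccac
Cxcl2 (chr5:90903749-90903898, plus strand): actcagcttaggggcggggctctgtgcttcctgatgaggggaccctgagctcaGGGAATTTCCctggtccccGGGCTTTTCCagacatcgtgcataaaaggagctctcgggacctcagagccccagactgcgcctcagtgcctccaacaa
Ccl9 (chr11:83578637-83578786, minus strand): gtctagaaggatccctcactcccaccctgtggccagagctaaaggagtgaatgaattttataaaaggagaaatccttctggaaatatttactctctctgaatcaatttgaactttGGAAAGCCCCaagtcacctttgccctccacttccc
Ccl6 (chr11:83593088-83593237, minus strand): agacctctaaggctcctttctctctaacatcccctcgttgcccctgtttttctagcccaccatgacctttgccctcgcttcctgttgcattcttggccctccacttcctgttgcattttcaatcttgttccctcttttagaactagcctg
Cxcl12 (chr6:117168385-117168534, plus strand): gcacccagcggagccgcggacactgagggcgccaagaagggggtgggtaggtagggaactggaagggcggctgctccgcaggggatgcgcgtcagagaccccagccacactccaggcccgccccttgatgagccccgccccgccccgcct
The motif stood at 2 places in Cxcl1, from -89 to -80 and from -71 to -62 relative to the start, and at 2 in Cxcl2, from -97 to -88 and from -78 to -69. In Ccl9 it stood from -35 to -26, and no match lay in the windows of Ccl6, Cxcl12 or Ccl25. Of the 38 members with a promoter window, 6 held it (15.8%), the others being Cxcl3, Ccl20 and Ccr3, against 1.63% of all 32851 windows of 300 bases. A looser spelling that contains it, GGG, any 5 bases, then CC, was held by 60.5% of these 38 members and 50.8% of all windows. The TATA box letters TATAAA were in 31.6% of the members and 13.6% of all windows, and TTC, any 3 bases, then GAA, a spelling of STAT sites, was in 10.5% and 8.3%, also on either strand. Member shares count genes, of which 3 had several windows, while the shares of all windows count each window. The spellings were chosen after the values of the genes had been seen, and a match describes the letters alone.

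After NTBC withdrawal most chemokine and receptor transcripts did not pass the test, and those that did went both ways. Of the 52 genes, 1 rose and 3 fell at limma's adjusted p of 0.05, together 7.69%, against 9.40% of all probe sets (6.21% higher and 3.20% lower). Ccl25, the ligand of CCR9 that guides T cells to thymus and small intestine, rose 2.17-fold. Ccl9 (a ligand of CCR1 in mice), Cxcl1 (a neutrophil attractant that binds CXCR2) and Cxcl12 (the ligand of CXCR4) fell. Their signals were 2.56-fold, 3.05-fold and 1.82-fold lower than on continuous NTBC. The Cxcl1 call was lost in 5 of the 6 fits that left out 1 array. The median log2 change was -0.22 for the 52 genes and -0.08 for all probe sets, and 43 of the 52 genes (82.7%) had a value below 0, against 60.5% of all probe sets. With median centring of the arrays, after which all probe sets had a median of 0.02, 31 of the 52 genes and 46.4% of all probe sets were below 0, and 2 genes rose and 3 fell. With quantile normalization 34 of the 52 and 52.4% of all probe sets were below 0, and 1 gene rose and 2 fell. The groups did not overlap for 11 members (21.2%), 3 higher and 8 lower, against 27.6% of all probe sets. With a 2-fold minimum added to the adjusted p, 1 rose and 2 fell, against 3.42% of all probe sets. At an unadjusted p under 0.05, 10 of the 52 genes differed, against 23.5% of all probe sets.

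**Figure D1:**
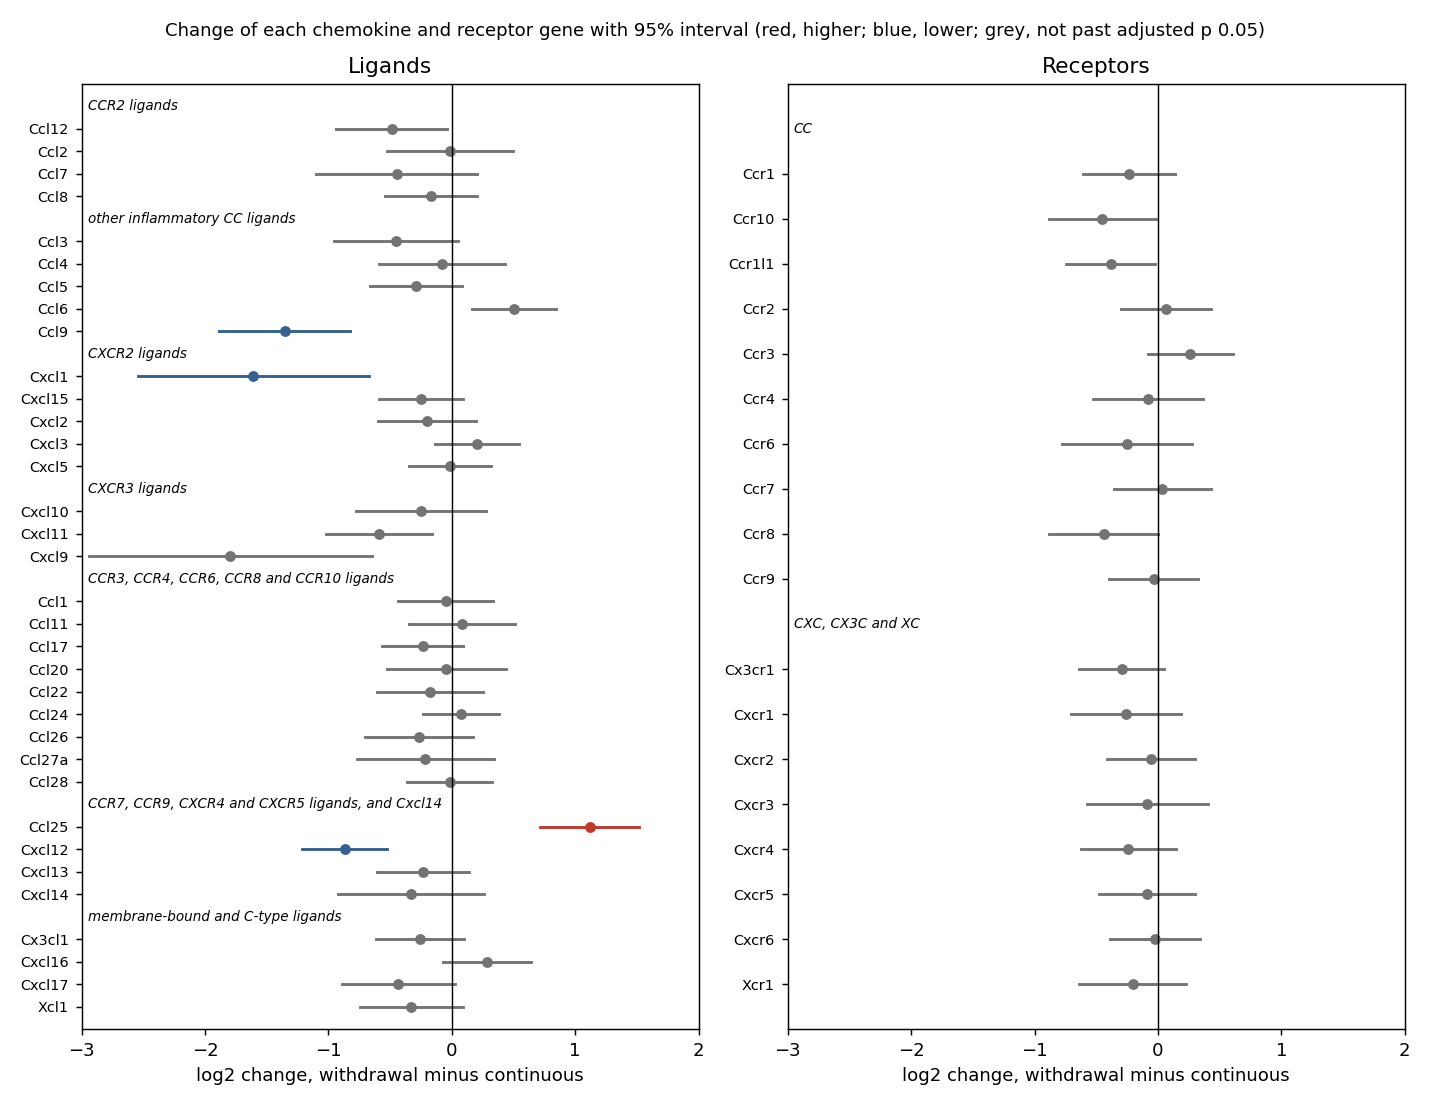
Log2 change (withdrawal minus continuous NTBC, horizontal axis) of 34 ligands and 18 receptors, grouped by role, with limma's 95% interval, which is not adjusted for the number of genes. Ccl25 stands at 1.12 and Ccl9, Cxcl1 and Cxcl12 at -1.35, -1.61 and -0.87, while the 18 receptors lie between -0.45 and 0.26.

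All values that follow are log2 normalized signals or differences between them. The table has no background level, and the lower quartile of all signals, 4.03 to 4.16 after withdrawal and 4.11 to 4.26 on continuous NTBC, serves as a mark of a low signal. Of the 52 members, 6 lay below the quartile of the array on every array, namely Ccl12, Cxcl3, Cxcl15, Ccr1l1, Ccr3 and Ccr4. Values on each array are given for members that passed, for those with groups that did not overlap and a log2 difference of at least 0.5, and for the brightest probe set of each role group.

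Ligands of CCR2, which recruit monocytes, gave no call. Ccl2, the main monocyte attractant, had a mean of 6.21 ± 0.29 after withdrawal and 6.23 ± 0.42 on continuous NTBC (SD, n = 3 each). The groups overlapped, with a log2 change of -0.01 and a 95% interval from -0.52 to 0.49. Ccl7, which binds the same receptor, read 6.79, 6.55 and 7.47 after withdrawal, against 6.86, 7.35 and 7.94 on continuous NTBC (log2 change -0.45, limma adjusted p = 0.397). Ccl12, a mouse CCR2 ligand, had a change of -0.49 from signals below the quartile, and Ccl8 one of -0.17. Without continuous replicate 1 the change of Ccl12 was -0.72 and passed (limma adjusted p = 0.0177). The highest upper bound of the 4 intervals was 0.49, short of a 2-fold rise. Monocyte markers on the same arrays went both ways, with 1 of 10 measured higher and 1 lower (20%, against 9.40% of all probe sets). They had a median log2 change of 0.01, with 4 changes below 0 (40%, against 60.5% of all probe sets). Their summed linear signal was 2651 to 2806 after withdrawal and 4217 to 5111 on continuous NTBC, a difference carried by Fn1, which hepatocytes also make (log2 change -0.91). The other 9 markers summed to 486 to 566 after withdrawal and 526 to 594 on continuous NTBC, ranges that overlap. Ly6c2, a defining marker of inflammatory monocytes, had a mean of 3.64 ± 0.38 after withdrawal and 4.28 ± 0.07 on continuous NTBC (SD, n = 3 each, limma adjusted p = 0.0696). It lay below the quartile on 3 withdrawal arrays and 1 continuous array. The part of monocytes in the chemokine values was not tested.

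The other inflammatory CC ligands, which attract monocytes and T cells, held Ccl9, which fell, among members with smaller differences. Ccl9 (Entrez gene 20308) read 8.64, 9.09 and 8.25 after withdrawal, against 10.20, 9.61 and 10.23 on continuous NTBC. All 3 withdrawal arrays lay below all 3 continuous arrays, with a log2 change of -1.35 (SE 0.24, limma adjusted p = 0.00610). This call was kept in all 15 alternatives, where the log2 change ran from -1.57 to -1.15. Ccl6, the neighbouring gene and also a CCR1 ligand of mice, read 6.49, 6.44 and 6.26 after withdrawal, against 5.72, 6.05 and 5.90 on continuous NTBC. Its withdrawal signals were all above the continuous ones, with a log2 change of 0.51 (95% interval 0.16 to 0.85) that did not pass (limma adjusted p = 0.0701). It did pass with median centring (limma adjusted p = 0.0449). Ccl3 had a mean of 4.69 ± 0.11 after withdrawal and 5.14 ± 0.49 on continuous NTBC (SD, n = 3 each), separated groups with a log2 change of -0.45 (limma adjusted p = 0.263). Ccl4 and Ccl5, which attract T cells and monocytes, had log2 changes of -0.08 and -0.29 with overlapping groups. Beside these, 0 of 14 Kupffer cell and macrophage markers and 0 of 8 T cell markers passed. Clec4f, a defining Kupffer cell lectin, had a mean of 8.00 ± 0.23 after withdrawal and 7.97 ± 0.19 on continuous NTBC (SD, n = 3 each). Macrophage markers had a median log2 change of 0.15 and a summed linear signal of 1641 to 2327 after withdrawal and 1631 to 1812 on continuous NTBC. Of their 14 changes, 1 was below 0 (7.14%, against 60.5% of all probe sets). Folr2 had separate groups and the smallest p of them (log2 change 0.50, limma adjusted p = 0.117). The part of macrophages in the Ccl9 and Ccl6 values was not tested.

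**Figure D2:**
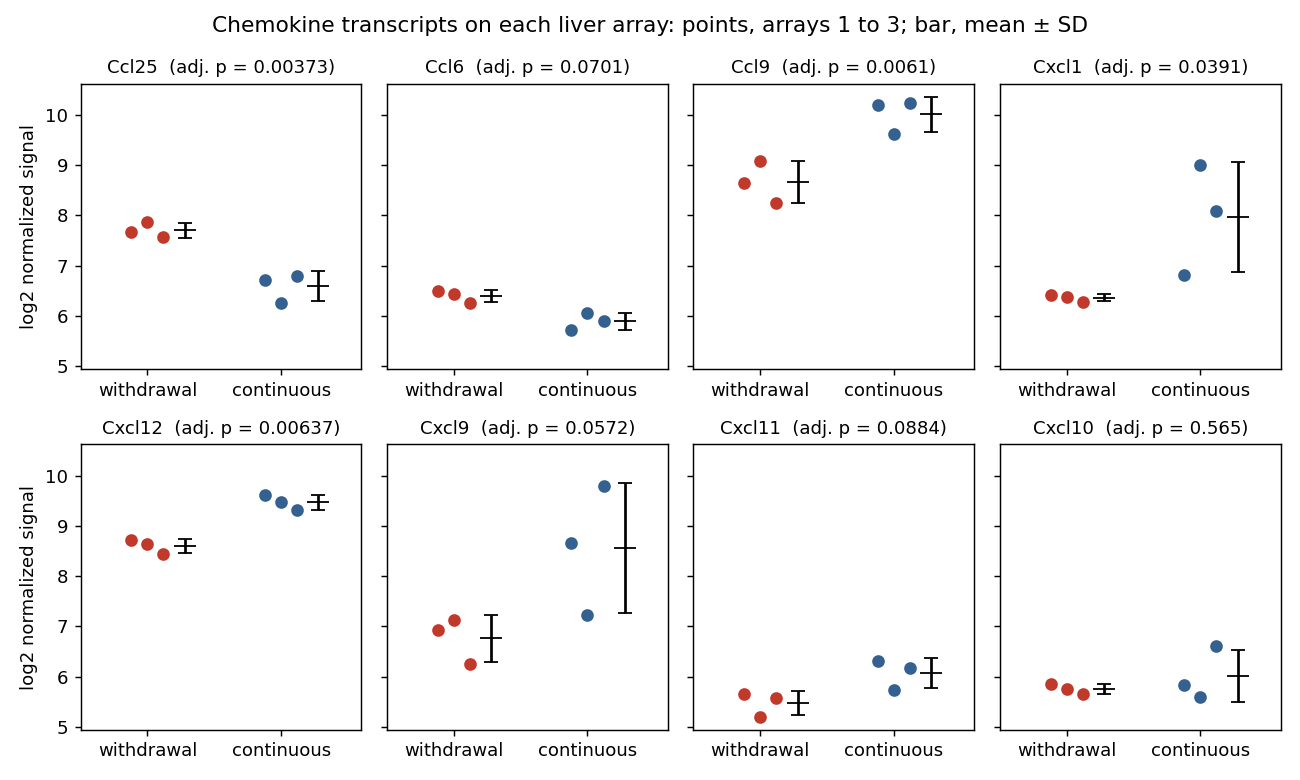
Log2 normalized signal (vertical axis) of 8 chemokine genes on 3 withdrawal arrays (red) and 3 continuous NTBC arrays (blue), with mean and SD beside them and limma's adjusted p above. Ccl25 and Ccl6 lie higher after withdrawal, Ccl9, Cxcl1, Cxcl12, Cxcl9 and Cxcl11 lie lower without overlap, and the groups of Cxcl10 overlap.

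Among the CXCR2 ligands, which draw in neutrophils, Cxcl1 alone passed. Cxcl1 (Entrez gene 14825) read 6.41, 6.38 and 6.28 after withdrawal, against 6.81, 9.0 and 8.09 on continuous NTBC. The withdrawal arrays were close together and below every continuous array, while the continuous arrays spanned over 2 log2 units. The log2 change was -1.61 (SE 0.42, limma adjusted p = 0.0391). This call depended on the arrays in the fit. The log2 change was -2.19 without continuous replicate 1, where the gene passed (limma adjusted p = 8.48e-04), and -1.09 without continuous replicate 2, where it did not (limma adjusted p = 0.0920). It was also lost without continuous replicate 3 (0.0982), withdrawal replicate 1 (0.103), withdrawal replicate 2 (0.111) and withdrawal replicate 3 (0.0967), all limma adjusted p-values, and with quantile normalization (0.0589). Cxcl2, whose promoter holds the same motif at 2 places, had a mean of 5.17 ± 0.20 after withdrawal and 5.37 ± 0.26 on continuous NTBC (SD, n = 3 each), a log2 change of -0.20 with a 95% interval from -0.60 to 0.20. Cxcl5 had a log2 change of -0.02, and Cxcl3 and Cxcl15, both below the quartile on every array, 0.20 and -0.25.

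Neutrophil markers were dim on the same arrays, and 10 of the 12 had means below the median probe set of the table. Of the 12, 1 was lower (8.33%, against 9.40% of all probe sets called) and none was higher. Their median log2 change was -0.21, with a summed linear signal of 291 to 354 after withdrawal and 331 to 397 on continuous NTBC. Of the 12 log2 changes, 11 were below 0 (91.7%, against 60.5% of all probe sets). With median centring and with quantile normalization, 7 of the 12 were below 0 (58.3%) and none passed. All probe sets then stood at 46.4% and 52.4% below 0. Ly6g, a defining surface protein of mouse neutrophils, had separate groups and a log2 change of -0.71 that did not pass (limma adjusted p = 0.0596), while S100a8, below the quartile on every array, and S100a9 had changes of 0.05 and -0.01. The lower gene, Retnlg, was also below the quartile on every array. Retnlg lost its call when any array other than continuous replicate 1 was left out (limma adjusted p up to 0.169), and with quantile normalization (0.0715) and median centring (0.0717). Cxcr2, the receptor of Cxcl1 on neutrophils, had a mean of 4.75 ± 0.18 after withdrawal and 4.81 ± 0.15 on continuous NTBC (SD, n = 3 each), and Cxcr1 had a log2 change of -0.26. Neither receptor passed, and the part of neutrophil number in the Cxcl1 values was not tested.

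The CXCR3 ligands, which attract T and NK cells and are known to be induced by interferon gamma, all had values below 0, and none passed. Cxcl9 read 6.92, 7.13 and 6.24 after withdrawal, against 8.65, 7.22 and 9.80 on continuous NTBC. The groups did not overlap, by a margin of 0.09 between withdrawal replicate 2 and continuous replicate 2, and the log2 change of -1.79 (SE 0.52) had a limma adjusted p = 0.0572. Without continuous replicate 2 the log2 change was -2.46 and passed (limma adjusted p = 0.00554), and without continuous replicate 3 it was -1.17 (limma adjusted p = 0.118). Cxcl11 read 5.65, 5.20 and 5.58 after withdrawal, against 6.31, 5.74 and 6.16 on continuous NTBC. These groups were separate as well, with a log2 change of -0.59 (SE 0.19, limma adjusted p = 0.0884). Cxcl10 had a mean of 5.76 ± 0.10 after withdrawal and 6.01 ± 0.53 on continuous NTBC (SD, n = 3 each) and overlapping groups. Cxcr3, the receptor of the 3 ligands, had a log2 change of -0.09.

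Interferon-induced genes were read beside them. Of 18 measured, none rose and 2 fell (11.1%, against 9.40% of all probe sets), with a median log2 change of -0.18. The 2 were Ifit1, an antiviral RNA-binding protein, at 5.78 ± 0.36 after withdrawal and 7.04 ± 0.28 on continuous NTBC, and Irf7, a transcription factor of the interferon response, at 6.71 ± 0.12 after withdrawal and 7.57 ± 0.14 on continuous NTBC (SD, n = 3 each). Their log2 changes of -1.27 (limma adjusted p = 0.00467) and -0.86 (0.00546) passed whichever array was left out. Ifng, which encodes interferon gamma, had a log2 change of 0.07 with overlapping groups and signals near the quartile. Of the 18 changes, 14 were below 0 (77.8%, against 60.5% of all probe sets). Of 19 measured inflammatory cytokines and NF-kB targets, 1 rose and 1 fell (10.5%, against 9.40% of all probe sets). Il18, an activator of interferon gamma production, fell by 2.05 (limma adjusted p = 1.12e-04), and Icam1, an adhesion molecule for leukocytes, had a log2 change of 0.81. The Icam1 call was lost without continuous replicate 2 (limma adjusted p = 0.0602), withdrawal replicate 1 (0.0641) or withdrawal replicate 2 (0.0816).

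The spread between arrays of a group was uneven for these inducible ligands. The SD of Cxcl1 was 0.07 after withdrawal and 1.10 on continuous NTBC, and that of Cxcl9 was 0.47 after withdrawal and 1.29 on continuous NTBC. The array that was highest for Cxcl1 in the continuous group, replicate 2, was the lowest for Cxcl9. In 39 of the 52 genes (75.0%) the SD was larger on continuous NTBC, against 61.0% of all probe sets. Among ligands this held for 29 of 34.

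**Figure D3:**
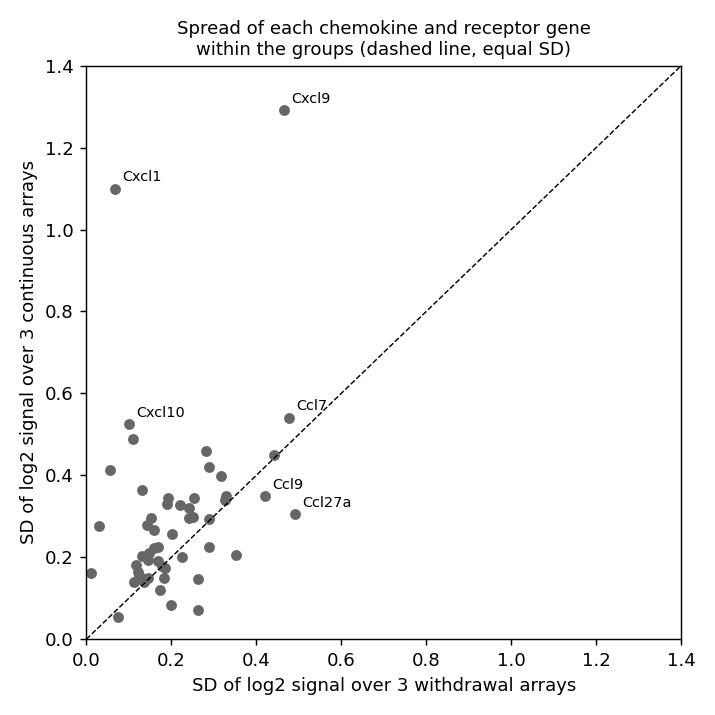
SD of the log2 signal over the 3 withdrawal arrays (horizontal axis) and over the 3 continuous NTBC arrays (vertical axis) for each of the 52 genes, with 1 point per gene. Cxcl9 and Cxcl1 lie farthest above the dashed line of equal SD, at 1.29 and 1.10 on the vertical axis.

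Homeostatic ligands held the remaining calls, in opposite directions. Of 8 listed, 4 were measured with a single symbol, namely Ccl25, Cxcl12, Cxcl13 and Cxcl14. No ligand of CCR7 was therefore among the 52 genes. Ccl25 (Entrez gene 20300) read 7.67, 7.87 and 7.57 after withdrawal, against 6.71, 6.25 and 6.80 on continuous NTBC. Every withdrawal array was above every continuous array, and the log2 change was 1.12 (SE 0.18, limma adjusted p = 0.00373). Across the 15 alternatives the gene passed each time, with log2 changes from 0.95 to 1.22. Ccr9, its receptor on gut-homing T cells, had a mean of 4.20 ± 0.18 after withdrawal and 4.23 ± 0.18 on continuous NTBC (SD, n = 3 each) and did not pass. Of the 52 members, Ccl25 alone had a 95% interval that reached a 2-fold rise.

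Cxcl12 (Entrez gene 20315), which retains blood progenitors and lymphocytes in tissues, read 8.72, 8.64 and 8.44 after withdrawal, against 9.61, 9.48 and 9.31 on continuous NTBC. The groups were well apart, with a log2 change of -0.87 (SE 0.15, limma adjusted p = 0.00637) that passed in all 15 alternatives. Cxcl12 fell 1.82-fold, short of the 2-fold threshold, which is not among the 15. Cxcr4, its receptor, read lower by 0.24 with overlapping groups (5.91 ± 0.23 after withdrawal and 6.15 ± 0.20 on continuous NTBC, SD, n = 3 each). Stellate cells and sinusoidal endothelium, known sources of Cxcl12 in liver, were followed by their markers. Of 11 stellate cell markers none passed, with a median log2 change of -0.05 and a summed linear signal of 1232 to 1466 after withdrawal and 1057 to 1281 on continuous NTBC. Sinusoidal endothelial markers were higher in 3 of 12 (25%, against 6.21% of all probe sets) and lower in none. Their median was 0.42, with sums of 3540 to 3667 after withdrawal and 2319 to 2872 on continuous NTBC. None of the 12 changes was below 0, against 60.5% of all probe sets, and 2 were with quantile normalization. The groups did not overlap for 9 of the 12 (75%, against 27.6% of all probe sets). Clec4g, a lectin of these cells, rose by 0.81 (limma adjusted p = 0.00553) and passed whichever array was left out. The count for the list was 1 with quantile normalization, 1 when continuous replicate 2 or withdrawal replicate 1 or 3 was left out, and 5 when continuous replicate 1 was. The part of these cells in the Cxcl12 values was not tested. Cxcl13, which guides B cells, and Cxcl14 had log2 changes of -0.23 and -0.33 and did not pass.

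Ligands of CCR3, CCR4, CCR6, CCR8 and CCR10, which act on eosinophils, type 2 and regulatory T cells, dendritic cells and skin or mucosal lymphocytes, gave no call among 9 genes. Their log2 changes ran from -0.27 to 0.08, and no interval went above 0.51. Ccl20, the CCR6 ligand, read 5.93, 5.65 and 6.30 after withdrawal, against 5.70, 5.94 and 6.37 on continuous NTBC, so the groups overlapped. Ccl17, a CCR4 ligand, had separate groups but signals near or below the quartile, with a mean of 3.93 ± 0.01 after withdrawal and 4.17 ± 0.16 on continuous NTBC (SD, n = 3 each, limma adjusted p = 0.370). Ccl22, the other CCR4 ligand, had a log2 change of -0.18. The eotaxins Ccl11, Ccl24 and Ccl26 had log2 changes of 0.08, 0.07 and -0.27. Ccl1, a CCR8 ligand, and Ccl28, a CCR10 ligand of mucosal surfaces, had log2 changes of -0.05 and -0.02. Ccl27a, the CCR10 ligand of skin, had log2 changes of -0.21 and, on a second probe set, -0.35, and neither passed.

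The membrane-bound ligands Cx3cl1 and Cxcl16, Cxcl17 and Xcl1 gave no call among 4 genes. Cxcl16, a scavenger receptor and CXCR6 ligand, read 6.37, 6.63 and 6.51 after withdrawal, against 6.45, 6.10 and 6.10 on continuous NTBC. Its log2 change was 0.29 with a 95% interval from -0.07 to 0.64, and continuous replicate 1 overlapped the withdrawal arrays. Cx3cl1, or fractalkine, which tethers CX3CR1-bearing monocytes, had a log2 change of -0.26. Cxcl17 and Xcl1, the ligand of XCR1 on dendritic cells, had changes of -0.43 and -0.33. Cxcr6, Cx3cr1 and Xcr1, the receptors of this group, had changes of -0.02, -0.29 and -0.20, and none passed.

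No receptor passed among 18, and at an unadjusted p under 0.05 there were 2, Ccr1l1 and Ccr10, against 23.5% of all probe sets. The log2 changes of the 18 lay between -0.45 and 0.26 and the 95% intervals between -0.89 and 0.61, so none reached a 2-fold difference in either direction. Cx3cr1, carried by patrolling monocytes and some macrophages, read 6.42, 6.38 and 6.70 after withdrawal, against 6.70, 6.75 and 6.93 on continuous NTBC. The groups touched at withdrawal replicate 3, and the log2 change of -0.29 did not pass (limma adjusted p = 0.289). Ccr7, which guides dendritic and naive T cells to lymph nodes, read 5.60, 5.69 and 5.88 after withdrawal, against 5.52, 5.53 and 6.01 on continuous NTBC (log2 change 0.04). Ccr2, the receptor of inflammatory monocytes, had a mean of 4.40 ± 0.17 after withdrawal and 4.34 ± 0.19 on continuous NTBC (SD, n = 3 each), a change of 0.06 with a 95% interval from -0.30 to 0.43. Ccr1, the receptor of Ccl9 and Ccl6, had a log2 change of -0.24 (limma adjusted p = 0.434). Ccr10 and Ccr8 of skin-homing and regulatory T cells had changes of -0.45 and -0.44, and Ccr10 passed without continuous replicate 1 (log2 change -0.64, limma adjusted p = 0.0415). Ccr3, on eosinophils, and Ccr1l1, a relative of Ccr1, had separate groups, with changes of 0.26 and -0.38 from signals below the quartile. Ccr4 of type 2 helper T cells, Ccr6 of T helper 17 and dendritic cells and Cxcr5, the Cxcl13 receptor of B cells, had changes of -0.08, -0.25 and -0.09.

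Genes around the receptors were read from lists of the same arrays. Of 8 genes, namely atypical receptors, platelet chemokines and the chemerin receptor Cmklr1, none passed. Ccrl2, an atypical receptor that presents chemerin, had the smallest p of them (log2 change -0.52, limma adjusted p = 0.0776). Of 18 measured genes of receptor signalling 3 rose and none fell (16.7%, against 9.40% of all probe sets), with a median of -0.03. The 3 were Gnb1, a G protein beta subunit, with a log2 change of 0.80 (limma adjusted p = 0.00630), Elmo1, which with Dock2 activates Rac (0.74, 0.00820), and Gnai3, an inhibitory G protein alpha subunit (0.76, 0.0168). Gnb1 and Gnai3 are made in most cell types. The Gnai3 call was lost without continuous replicate 2 (limma adjusted p = 0.0539), withdrawal replicate 1 (0.0787) or withdrawal replicate 2 (0.0603).

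Few markers of other leukocytes passed. Of 8 T cell and 7 B cell and plasma cell markers none passed. Of 8 NK cell markers, Gzmb was lower (log2 change -0.67), with signals below the quartile on all 3 withdrawal arrays. This call ended with median centring (limma adjusted p = 0.0810), with quantile normalization (0.0852) and when any array other than withdrawal replicate 3 was left out (up to 0.173). Of 8 dendritic cell markers, Cd209a was lower, at 8.88 ± 0.13 after withdrawal and 10.23 ± 0.31 on continuous NTBC (SD, n = 3 each, limma adjusted p = 0.00129). Cd14, the lipopolysaccharide co-receptor of monocytes and Kupffer cells, had a log2 change of 1.14 (limma adjusted p = 0.0240), a call lost when continuous replicate 1 (0.0511) or 2 (0.0561) or withdrawal replicate 1 (0.103) or 2 (0.103) was left out.

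**Figure D4:**
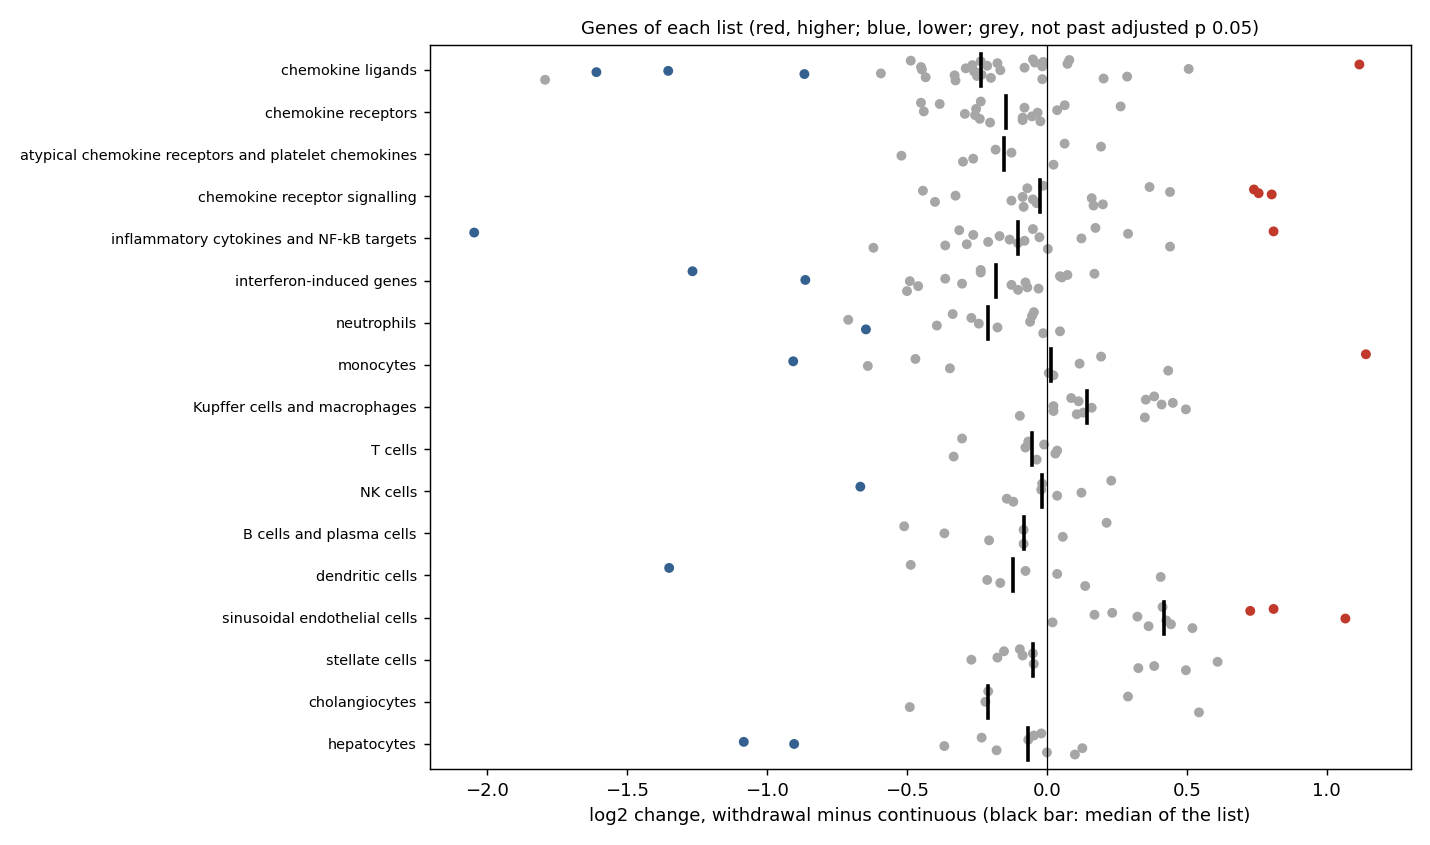
Log2 change (withdrawal minus continuous NTBC, horizontal axis) of the genes of 17 lists, with a black bar at the median of each list. Ligands have a median of -0.23 and receptors of -0.14, sinusoidal endothelial markers one of 0.42, and neutrophil markers one of -0.21.

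Facts of the whole table bear on these values as follows. Of 11 hepatocyte markers 2 were lower (18.2%, against 9.40% of all probe sets called). These were Cps1 of the urea cycle (log2 change -1.08) and Fga, a fibrinogen chain (-0.90). Of 5 cholangiocyte markers none passed. Among the liver's own markers, Alb, the main serum protein of hepatocytes, read 14.12 ± 0.01 after withdrawal and 14.17 ± 0.06 on continuous NTBC (SD, n = 3 each). Hpd, the enzyme that NTBC inhibits, read 12.02 ± 0.06 after withdrawal and 12.66 ± 0.14 on continuous NTBC (SD, n = 3 each), a log2 change of -0.64 (limma adjusted p = 0.0210). Fah, mutated in both groups, read 7.68, 7.88 and 7.43 after withdrawal, against 8.30, 7.63 and 7.52 on continuous NTBC. The arrays gave medians of 5.21 to 5.39 after withdrawal and 5.29 to 5.44 on continuous NTBC, and correlations over probe sets of 0.985 to 0.991 among withdrawal arrays and 0.978 to 0.980 among continuous arrays. The 3 arrays in each group limit the precision.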

How the data were processed

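Liver RNA (100 ng per sample, per the labels' protocols) was amplified with a whole-transcript kit, labelled with biotin and hybridised to Affymetrix mouse arrays, 3 after withdrawal and 3 on continuous NTBC. The deposited table holds a normalized intensity per probe set on a linear scale, made by the authors with Transcriptome Analysis Console, per the submitters' processing notes. Version, background correction, normalization and genome build are not given in the sources used here. On the linear scale, 100% of the deposited intensities were within 0.006 of 2 raised to a 2-decimal power. Between 0.748% and 1.80% of probe sets had identical intensities in a pair of arrays.

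The platform annotation gives 1 symbol for 23521 probe sets, several for 1814 and none for 9137. Only those with 1 symbol were given gene names. All 52 members matched the mouse gene table (GRCm38.p6) by identifier. For the test, limma 3.58.1 (R 4.3.3, lmFit and eBayes) was run on the log2 values of the whole table of 34472 probe sets (4 residual and 10.2 total degrees of freedom in a two-sided test). Its p-values were adjusted by Benjamini and Hochberg's method across the table, without a filter, and called at 0.05. The fit was tested on simulated data. Values on each array were given by the rule stated in the results, and of other lists the 3 genes with the smallest p or defining markers could be named. Ifng was named as well. Alb, Fah and Hpd were added to check the samples. The members, lists and rules were chosen with earlier results of these data known. Alternatives were quantile normalization, median centring, a filter on dim probe sets, a replicate block, array weights, trend and robust options, 1 probe set per gene, averaged probe sets, signals raised to the lower quartile, a 2-fold threshold and each array left out.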

Additional observations from a re-analysis of the deposited data

How the results depend on the processing

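Ccl25, Ccl9 and Cxcl12 passed in all 15 alternatives run on each, with their direction. The 15 leave out the 2-fold threshold, which Cxcl12 (1.82-fold) did not meet. The number of higher members was 1 as reported and 2 with median centring, without dim probe sets (27 members left) and with array weights, Ccl6 being the addition in each. The number of lower members was 3 as reported, 5 without dim probe sets and 5 with array weights, and 1 higher and 2 lower genes met a 2-fold threshold as well. Without 1 array, higher members numbered 1 throughout and lower members 2 to 5, the 5 being without continuous replicate 1 (Ccl12 and Ccr10 added). Probe sets past the threshold then numbered 1454 to 4210, with 1454 when withdrawal replicate 1 was left out, 1795 for withdrawal replicate 2 and 2078 for continuous replicate 2. They numbered 3241 as reported and 5588 with array weights. Cxcl1 was not past the threshold with quantile normalization (limma adjusted p = 0.0589), trend and robust options (limma adjusted p = 0.0511) or raised signals (0.0777). Cxcl9 passed without dim probe sets, with array weights, with 1 probe set per gene and with the mean of probe sets (limma adjusted p 0.0261 to 0.0368). Deviations of same-numbered arrays from their group means had correlations of 0.16, -0.12 and 0.22 over probe sets. For arrays of different numbers the correlations ran from -0.36 to 0.25. With the replicate block, 3298 probe sets, 1 higher and 4 lower members passed, Cxcl11 being the addition (limma adjusted p = 0.0395), and the neutrophil marker Retnlg did not (0.0587). The cause of these moves was not tested.

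Small changes turned sign, with none past the threshold. With median centring the log2 changes were 0.087 (Ccl2), 0.020 (Ccl4), 0.083 (Cxcl5), 0.050 (Ccl1), 0.057 (Ccl20), 0.083 (Ccl28), 0.020 (Ccr4), 0.067 (Ccr9), 0.046 (Cxcr2), 0.013 (Cxcr3), 0.013 (Cxcr5) and 0.077 (Cxcr6). With quantile normalization they were 0.094 (Cxcl5), 0.056 (Ccl1), 0.070 (Ccl28), 0.028 (Ccr4), 0.081 (Ccr9), 0.062 (Cxcr2), 0.019 (Cxcr3), 0.010 (Cxcr5) and 0.097 (Cxcr6). Array weights gave -0.0081 (Ccl11) and -0.071 (Ccr7), and raised signals gave -0.11 (Cxcl3) and -0.11 (Ccr3). As Cxcl3 and Ccr3 lay below the quartile on every array, raising replaced all their values by the quartiles. The -0.11 is therefore the difference between quartiles and holds no signal of either gene. Without 1 array the ranges were -0.19 to 0.22 (Ccl2), -0.30 to 0.088 (Ccl4), -0.097 to 0.028 (Cxcl5), -0.46 to 0.045 (Cxcl10), -0.14 to 0.10 (Ccl1), -0.11 to 0.19 (Ccl11), -0.21 to 0.14 (Ccl20), -0.36 to 0.0050 (Ccl22), -0.072 to 0.088 (Ccl28), -0.036 to 0.15 (Ccr2), -0.22 to 0.12 (Ccr4), -0.047 to 0.20 (Ccr7), -0.10 to 0.070 (Ccr9), -0.16 to 0.018 (Cxcr2), -0.29 to 0.052 (Cxcr3), -0.20 to 0.062 (Cxcr5) and -0.098 to 0.097 (Cxcr6).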

Other observations

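Probe sets with several symbols, of which at least 1 is a chemokine or chemokine receptor, were outside the 52 genes because their signal cannot be assigned to a single gene. There were 33 of them, of which 4 were lower and none was higher after withdrawal at limma's adjusted p of 0.05 (12.1%, against 9.40% of all probe sets). Their log2 changes ran from -1.05 to 0.25 with a median of -0.12.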
